A study of Mus musculus with 2 samples.

Results

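The T cells described here were the cells of clusters 5 and 8 of the deposited single cell RNA-seq table, 2211 of 17813 cells. They were chosen by cluster number. The 2 libraries held mononucleated cells from forelimb, hindlimb and diaphragm muscle, 1 from mdx mice and 1 from cKO mice, with 1316 and 895 T cells. Each library was made from 3 male mice aged 3 months, an age also given as 12 weeks, and single mice cannot be told apart in the table. The mdx mice lack dystrophin, the membrane protein whose loss causes Duchenne muscular dystrophy. The cKO mice were mdx as well and carried Spp1 alleles with exons 2 and 3 flanked by LoxP sites together with Lyz2Cre. The floxed allele was made in C57BL/6N cells, and the line was brought onto the BL/10 strain of the mdx mice by 5 or more backcrosses. The mdx sample carries a genotype label of control WT, taken here as wild type for Spp1, against its title and library name. With 1 library per genotype there was no replicate check and no test was run. Intervals given beside shares are 95% binomial intervals by the exact (Clopper-Pearson) method, and they cover the counting of cells only.

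T cells recognise antigen through the T cell receptor, whose beta chain is completed by the constant region that Trbc2 encodes. Cd3g, Cd3e and Cd3d encode the signalling chains that carry the receptor to the surface. In dystrophic muscle, T cells enter with the myeloid infiltrate, and regulatory T cells are known to restrain inflammation and to favor repair. Osteopontin, the product of Spp1, is a secreted glycoprotein that binds integrins and CD44 on leukocytes, T cells among them. Lyz2Cre deletes in macrophages, monocytes and granulocytes, so T cells of the cKO are the neighbors and not the targets of the deletion. Proliferating T cells copy their DNA in S phase and divide after G2/M, and they are larger and hold more RNA than resting T cells.

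The name T cells rests on the numbers of cells in clusters 5 and 8, which together equal the study's T cell numbers in both genotypes. The levels of Cd3g, Cd3e, Cd3d and Trbc2 were not analysed here, since the values used were totals and scores per cell, and no subset of T cells was named. For each cell these were its unique molecular identifiers (UMIs, the count of distinct captured transcripts), its detected genes, the mitochondrial percent of its UMIs, and scores for S phase and for G2/M phase. The UMIs of all cells summed to 43185486 in mdx and 59240298 in cKO. T cells were 18.4% of mdx cells but held 11.6% of the library's UMIs, and they were 8.40% of cKO cells and held 3.89%. The libraries shared 20 cell barcodes, and 1 of these fell in a T cell cluster in both.

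Cluster 5 was the larger part of the mdx T cells but not of the cKO T cells. It held 965 of 1316 mdx T cells (73.3%, 95% interval 70.9 to 75.7) and 430 of 895 cKO T cells (48.0%, 44.7 to 51.4), a ratio of the cKO to the mdx percent of 0.655. Because cells of the 2 libraries differed in UMIs, T cells were also paired, each mdx cell with 1 cKO cell whose UMIs differed by at most 5%. In the 498 pairs cluster 5 held 72.5% of cells on the mdx side (68.3 to 76.4) and 41.2% on the cKO side (36.8 to 45.6). After the cKO UMIs were scaled to the mdx median before pairing, it held 71.7% (68.5 to 74.7) and 50.1% (46.6 to 53.5). The intervals of the 2 libraries stayed apart in each of these comparisons. As a percent of all cells of the library, cluster 5 was 13.5% in mdx and 4.03% in cKO, and cluster 8 was 4.90% and 4.36%.

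The gap in the share of T cells in cluster 5 depended on the depth of the cells compared. Among T cells of 1000 to 1999 UMIs, cluster 5 held 60.7% in mdx (84 cells, 49.5 to 71.2) and 57.8% in cKO (393 cells, 52.7 to 62.7), so the intervals overlapped there. From 2000 to 2999 UMIs it held 79.4% of 306 mdx cells and 52.3% of 283 cKO cells. From 3000 to 3999 UMIs it held 84.0% in mdx (486 cells, 80.4 to 87.1) and 27.7% in cKO (94 cells, 18.9 to 37.8), the widest gap of the bins. In both libraries cluster 8 held most T cells of 5000 UMIs or more.

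**Figure D1:**
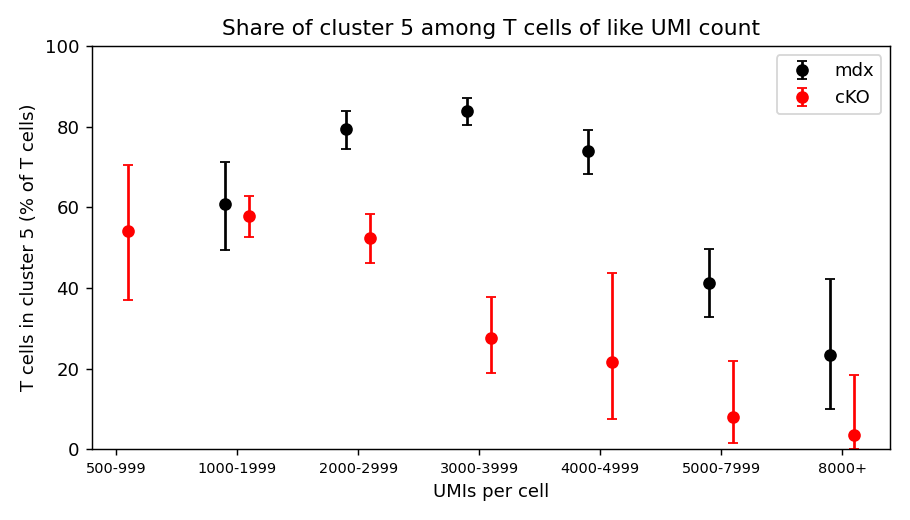
Percent of T cells that fell in cluster 5 (y axis) among T cells of like UMI count (x axis, bins of UMIs per cell) with mdx black, cKO red, exact 95% binomial intervals as bars, and bins of fewer than 10 cells left out. The libraries lie close together from 1000 to 1999 UMIs, at 60.7% and 57.8%, and farthest apart from 3000 to 3999 UMIs, at 84.0% and 27.7%.

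Both T cell clusters held fewer UMIs per cell in cKO. The median of cluster 5 was 3451 UMIs for mdx cells (lowest 528, quartiles 2862 and 4049, highest 12005) and 1893.5 UMIs for cKO cells (lowest 533, quartiles 1519 and 2317, highest 9002), a cKO to mdx ratio of 0.549. The upper quartile of the cKO cells thus lay under the lower quartile of the mdx cells. The median of cluster 8 was 3958 UMIs for mdx cells (quartiles 2838 and 5239, highest 32591) and 2337 UMIs for cKO cells (quartiles 1663 and 3303, highest 22792), a ratio of 0.590. All 12 immune clusters had the lower median in cKO, and cluster 5 had the lowest ratio of them and cluster 8 the third lowest. Lymphocytes did not move as one, since the medians of B cell cluster 10 were 1996 UMIs for mdx and 1589.5 UMIs for cKO cells, a ratio of 0.796. B cell cluster 15, at 2949 and 1959 UMIs, had a ratio of 0.664 and so lay nearer to the T cell clusters. Of the T cells, 6 had a barcode that the other library also held.

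Cluster 5 was the more uniform of the T cell clusters. Its interquartile range was 0.344 times its median in mdx and 0.422 times in cKO. In cluster 8 these values were 0.607 and 0.702. The upper tail of cluster 8 differed less between the libraries than its center. The 95th percentile was 8820 UMIs in mdx and 8373 in cKO, whereas in cluster 5 it was 5298 and 3324. The mean UMIs of cluster 8 gave a ratio of cKO to mdx of 0.675, higher than the ratio of the medians.

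The T cells in cKO showed fewer genes per cell, and this gap closed when cells of like UMI count were compared. Cluster 5 had a median of 1128 genes in mdx and 843.5 in cKO (ratio of cKO to mdx 0.748), and cluster 8 had 1323 and 1060 (ratio 0.801). In the 219 pairs of cluster 5 cells, whose median UMIs were 2360 for mdx and 2313 for cKO cells, the medians were 954 genes (quartiles 856.5 and 1056.5) and 973 genes (844 and 1165), a ratio of 1.02. In the 228 pairs of cluster 8 cells they were 1235 genes (1039 and 1466) and 1312.5 genes (1034 and 1743.75), a ratio of 1.06. The cKO cell of a pair had more genes in 61.2% of pairs in cluster 5 and in 67.1% of pairs in cluster 8. The pairs took 22.7% of cluster 5 in mdx and 50.9% of it in cKO, so they compare mdx cells of low depth with cKO cells of high depth.

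By UMI bin, the medians of genes lay close at low depth, and the cKO median was the higher at greater depth. In cluster 5 the median from 1000 to 1999 UMIs was 795 genes in 51 mdx cells and 749 in 227 cKO cells. From 2000 to 2999 UMIs it was 987 in 243 mdx cells and 992 in 148 cKO cells. From 3000 to 3999 UMIs it was 1128 in 408 mdx cells and 1361 in 26 cKO cells. In cluster 8 the medians of the same 3 bins were 810, 1095 and 1255.5 genes in mdx and 827.5, 1105 and 1395.5 genes in cKO. From 5000 to 7999 UMIs cluster 8 cells had a median of 1588 genes in mdx and 2170.5 in cKO. The makeup of that bin differed, since 6 of 83 mdx cells but 19 of 34 cKO cells scored above 0.2 for S or G2/M. Over all of cluster 8 such cells held more genes, with medians of 2750 for mdx and 2347 for cKO. The remaining cells had medians of 1291 and 1020. Pairs of cluster 8 made without such cells had a ratio of genes of 1.04, where all pairs had 1.06. The part of these cells in the gap at greater depth was not tested. With cKO cells weighted to the UMIs of the mdx cells, which rests on the few deep cKO cells, the ratio of genes was 1.18 in cluster 5 and 1.19 in cluster 8.

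**Figure D2:**
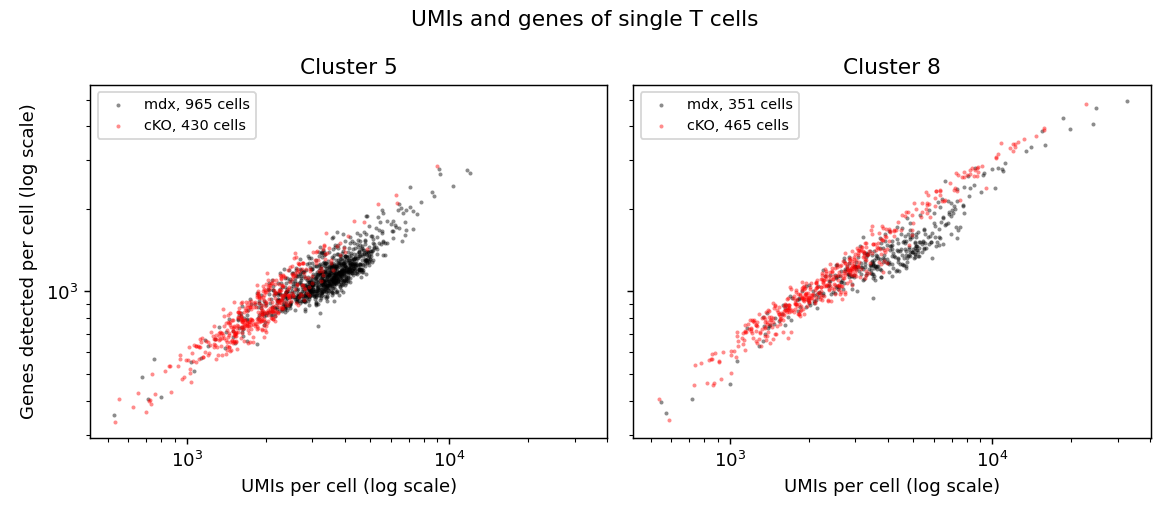
Genes detected per cell (y axis) against its UMIs (x axis), both on log scales, for every cell of cluster 5 (left) and cluster 8 (right) in mdx (black) and cKO (red). The cKO cells lie to the left of the mdx cells, with medians of 1893.5 against 3451 UMIs in cluster 5, and at 3000 to 3999 UMIs they lie above them, with 1361 against 1128 genes.

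The median mitochondrial share was lower in cluster 8 than in cluster 5 over all cells. Mitochondrial transcripts made up a median of 4.95% of UMIs in cluster 5 and 4.72% in cluster 8 of mdx, and 5.20% and 4.09% in cKO. When cells of cluster 5 and cluster 8 of the same library were paired for UMIs, the median of cluster 8 minus that of cluster 5 was -0.423 percentage points in mdx (305 pairs, 5.17% in cluster 5 and 4.74% in cluster 8) and -0.985 in cKO (323 pairs, 5.19% and 4.21%). Pairs walked from the lowest UMIs upward gave -0.265 in mdx and -1.01 in cKO. The difference in mdx was then within counting error, whereas that in cKO exceeded it under both pairings. By depth, cluster 8 of mdx had the higher median from 4000 to 4999 UMIs (5.29% against 5.02% in cluster 5) and from 5000 to 7999 UMIs (5.24% against 5.16%). The cluster 8 cell had the higher share in 39.7% of the mdx pairs and 30.03% of the cKO pairs. Without cells above 0.2 on a cell cycle score, the difference was -0.390 percentage points in mdx and -0.9746 in cKO.

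Cluster 8 also spread more widely in mitochondrial share. The interquartile range was 1.38 percentage points in cluster 5 and 2.13 in cluster 8 of mdx, and 1.59 and 1.89 in cKO. Cells with few UMIs scatter more by counting alone, so the binomial variance of each cell's UMIs was taken off. The SD that remained was 1.11 percentage points in cluster 5 and 1.53 in cluster 8 of mdx, and 1.20 and 1.56 in cKO. The 2 libraries were thus close to each other within a cluster, and cluster 8 exceeded cluster 5 in both. Cells under 2% mitochondrial UMIs were 0.725% of cluster 5 and 3.99% of cluster 8 in mdx, and 0.698% and 3.87% in cKO. At the high end the values stop at 9.91%, below the limit of 10% that all deposited cells keep to. The mitochondrial limit named in the methods is higher than that.

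Between the genotypes, the median mitochondrial share of cluster 5 was 0.248 percentage points higher in cKO over all cells and 0.233 higher in the pairs matched for UMIs (4.97% in mdx and 5.20% in cKO). The difference in the pairs was within counting error, and the cKO cell had the higher share in 51.6% of them. With cKO cells weighted to the mdx cells over UMI bins the difference was -0.0847, so the direction in cluster 5 depended on how depth was matched. In cluster 8 it depended on which cells were compared. The median was 0.631 percentage points lower in cKO over all cells and 0.157 lower in the matched pairs (4.36% and 4.203%, within counting error), but 0.329 higher in the 186 pairs without cells above 0.2 on a cell cycle score (4.17% and 4.50%). The interquartile range of the pairs was 1.86 percentage points in mdx and 1.495 in cKO for cluster 5, and 2.19 and 1.70 for cluster 8. The ratio of these ranges in cluster 5 was 0.804, and it was 1.00 when pairs were walked from the lowest UMIs upward, so no difference in spread between the genotypes is drawn from the pairs.

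In mdx the mitochondrial share of cluster 8 climbed with depth. Its median was 2.83% from 1000 to 1999 UMIs, 4.84% from 3000 to 3999 and 5.29% from 4000 to 4999, and it was 4.13% at 8000 UMIs or more. In cKO the same bins had 3.67%, 4.50%, 3.98% and 4.02%. Across single cells of cluster 8, Spearman's rho between UMIs and mitochondrial share was 0.336 in mdx (351 cells) and 0.136 in cKO (465 cells), where UMIs also form the denominator of the share. Without cells above 0.2 on a cell cycle score, rho in cluster 8 was 0.415 in mdx and 0.223 in cKO. Over all cells of cluster 5 rho was 0.0249 in mdx and -0.0822 in cKO, and the medians of bins of 26 cells or more stayed between 4.79% and 5.60%.

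**Figure D3:**
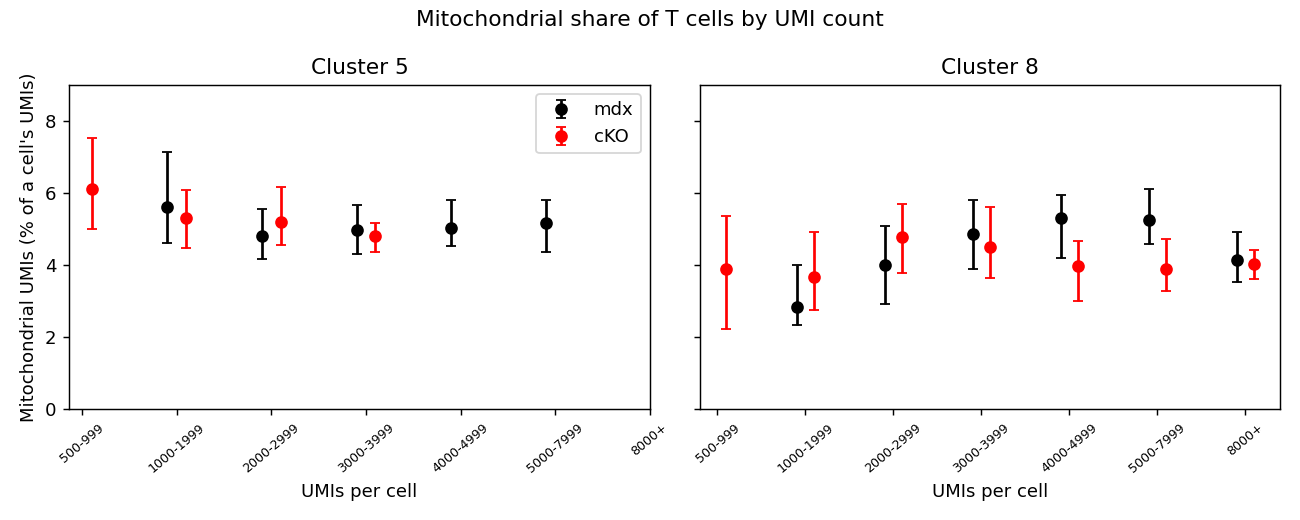
Mitochondrial percent of a cell's UMIs (y axis) by UMIs per cell (x axis, bins) in cluster 5 (left) and cluster 8 (right) with mdx black and cKO red. Points stand for medians and bars for the interquartile range over cells, and bins of fewer than 10 cells are left out. The medians of cluster 5 lie between 4.79% and 6.12%, while cluster 8 of mdx climbs from 2.83% at 1000 to 1999 UMIs to 5.29% at 4000 to 4999 UMIs. Cluster 8 of cKO lies highest at 2000 to 2999 UMIs, at 4.77%.

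Cell cycle scores commonly weigh the expression of S phase or G2/M phase genes against control genes, but how the deposited ones were made is not described. By the usual rule a cell is called G1 when neither score is above 0. This sign rule gave the deposited phase of all 17813 cells. By that call most T cells of both clusters were in S or G2M, with 60.4% of mdx and 62.6% of cKO cells in cluster 5 and 65.0% and 63.7% in cluster 8. The typical score lay near 0, so these calls alone do not show cycling. The median S score of cluster 5 was -0.00680 in mdx (SD 0.0491) and -0.0147 in cKO (SD 0.0549), and that of cluster 8 was 0.000598 (SD 0.136) and -0.00223 (SD 0.127). The median G2M score of cluster 5 was -0.0230 (SD 0.0478) and -0.0163 (SD 0.0574), and that of cluster 8 was -0.0231 (SD 0.184) and -0.0150 (SD 0.247). The difference in the S score of cluster 5, -0.00787 for cKO minus mdx, exceeded the counting error of the medians, and the other 3 differences did not.

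In pairs whose UMIs differed by at most 5% no difference in a median score exceeded counting error. In cluster 5 the median S score was -0.0169 in mdx and -0.0149 in cKO, and the median G2M score was -0.0232 and -0.0238. The G2M difference of cluster 5, cKO minus mdx, was thus -0.000626 in the pairs, but it was 0.00648 in pairs made after scaling the cKO UMIs and 0.0103 with cKO cells weighted over UMI bins, the last beyond counting error. Cells called S or G2M made up 60.3% (53.5 to 66.8) and 59.4% (52.5 to 65.9). In the pairs of cluster 8 the median S score was -0.00458 and 0.00559, the median G2M score was -0.0231 and -0.0147, and 64.5% of the cells (57.9 to 70.7) were called S or G2M in each library. When pairs were held to a UMI difference of at most 1%, the S score difference of cluster 8, cKO minus mdx, was 0.0179, beyond counting error.

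Over all cells the G2M call was more frequent in cKO in both clusters, and the S call less frequent in cluster 8, while the intervals of the S call overlapped in cluster 5. In cluster 5, 22.7% of cells from mdx (20.1 to 25.5) and 29.8% from cKO (25.5 to 34.3) were called G2M, and 37.7% (34.7 to 40.9) and 32.8% (28.4 to 37.5) were called S. In cluster 8, 20.2% of cells from mdx (16.1 to 24.8) and 29.2% from cKO (25.1 to 33.6) were called G2M, and 44.7% (39.4 to 50.1) and 34.4% (30.1 to 38.9) were called S. In cells matched for UMIs the intervals overlapped. There the G2M share of cluster 5 was 27.4% for mdx (21.6 to 33.8) and 25.6% for cKO (19.9 to 31.9), and that of cluster 8 was 22.4% (17.1 to 28.3) and 27.6% (21.9 to 33.9). In pairs made after scaling the cKO UMIs to the mdx median the intervals overlapped as well, with 23.6% (19.6 to 28.0) and 30.3% (25.9 to 35.0) in cluster 5, and 20.2% (16.0 to 25.02) and 27.0% (22.3 to 32.2) in cluster 8.

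T cells with a clear cycle signal were found almost wholly in cluster 8. Above 0.2 on either score were 29 of 351 cells from mdx (8.26%, 5.60 to 11.7) and 56 of 465 from cKO (12.04%, 9.23 to 15.4) in cluster 8, but 5 of 965 (0.518%, 0.168 to 1.20) and 3 of 430 (0.698%, 0.144 to 2.03) in cluster 5. The scores took part in the clustering as far as their genes did, so this contrast of clusters is a description. Of the cluster 8 cells above 0.2, 7 in mdx and 15 in cKO were above it on the S score only, 8 and 15 on the G2M score only, and 14 and 26 on both. The highest G2M score was 1.11 in mdx and 1.21 in cKO. Few cells of cluster 8 lay near the threshold, with 6 in mdx and 5 in cKO between 0.15 and 0.2 and 2 and 6 between 0.2 and 0.25. Of the 5 and 3 such cells of cluster 5, 3 and 2 lay between 0.2 and 0.25.

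**Figure D4:**
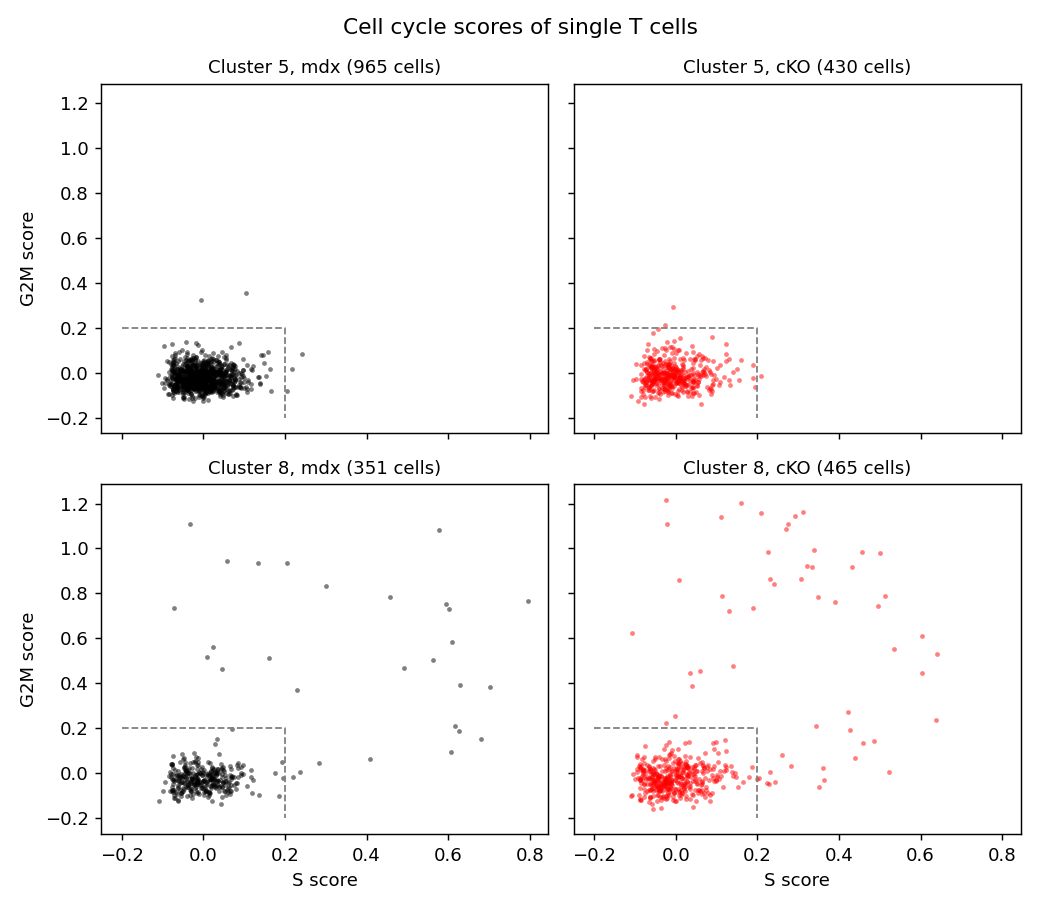
G2M score (y axis) against S score (x axis) of each cell of cluster 5 (top) and cluster 8 (bottom) in mdx (black, left) and cKO (red, right), where the dashed lines mark 0.2 on each score. Most cells gather around 0 in all 4 panels, and a tail reaches past the lines in cluster 8, with 29 mdx and 56 cKO cells, against 5 and 3 in cluster 5.

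Over all T cells the share above 0.2 was 2.58% in mdx (34 cells, 1.80 to 3.59) and 6.59% in cKO (59 cells, 5.06 to 8.42), intervals that do not overlap. With the cKO clusters weighted as in mdx the cKO share was 3.72%. As a percent of all cells of the library, cluster 8 cells above 0.2 were 0.405% in mdx (0.272 to 0.581) and 0.525% in cKO (0.397 to 0.682), which overlap.

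Most cluster 8 cells above 0.2 held many UMIs. Their median was 9263 UMIs for mdx and 7222.5 UMIs for cKO cells, a cKO to mdx ratio of 0.780, and their median genes were 2750 and 2347. Of these, 3 of 29 in mdx and 3 of 56 in cKO lay under the median UMIs of their cluster and library, and the lowest held 3304 and 1123 UMIs. The few cells above 0.2 in cluster 5 had medians of 3920 UMIs in 5 mdx and 2627 in 3 cKO cells. For the remaining cells of cluster 8 the medians were 3770.5 and 2189 UMIs, a ratio of 0.581. Of the cluster 8 cells with 8000 UMIs or more, 19 of 23 in mdx and 22 of 27 in cKO were above 0.2. Doublets were not called, and the part of droplets with 2 cells in this group was not tested. For all cluster 8 cells above 0.2, mitochondrial UMIs were a median 4.13% for mdx and 3.84% for cKO, and 4.75% and 4.16% in the rest of cluster 8.

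At equal UMIs, cells above 0.2 were more frequent in cluster 8 of cKO. Of the 228 matched pairs, 7.46% held such a cell on the mdx side (4.40 to 11.7) and 19.3% on the cKO side (14.4 to 25.03). The gap lay in cells of middle depth. From 4000 to 4999 UMIs, 1 of 68 cells from mdx (1.47%, 0.0372 to 7.92) and 5 of 18 from cKO (27.8%, 9.69 to 53.5) were above 0.2. From 5000 to 7999 UMIs, 6 of 83 cells from mdx (7.23%, 2.70 to 15.1) and 19 of 34 from cKO (55.9%, 37.9 to 72.8) were. At 8000 UMIs or more the shares were 82.6% and 81.5%. From 2000 to 2999 UMIs, 0 of 63 mdx cells, which allows a share of up to 4.76% by the limit of 3 counts and 5.69% by the exact interval, and 1 of 135 cKO cells were above 0.2.

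The pairing by UMIs as deposited treats a UMI as equal in both libraries. When the cKO UMIs were first scaled to the mdx median of cluster 8, 25 of 326 cells from mdx (7.67%, 5.02 to 11.1) and 21 of 326 from cKO (6.44%, 4.03 to 9.68) were above 0.2, and the intervals overlapped. As cycling cells hold more UMIs, and cKO T cells held fewer UMIs in general, the share at equal UMIs and the depth of the library cannot be told apart with these values. Cells of 200 to 1800 genes, the limits named in the methods, took in 94.5% of T cells from mdx and 92.3% of those from cKO. Among them 1.32% of mdx and 3.25% of cKO cells of cluster 8 were above 0.2, and cluster 5 held 75.6% and 51.6% of the T cells. The upper limit itself leaves out most cells above 0.2, which hold many genes. Of the T cells above 0.2, 7 of 34 in mdx and 16 of 59 in cKO lay within the limits. The shares within the limits thus give no separate measure of the difference between the libraries.

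**Figure D5:**
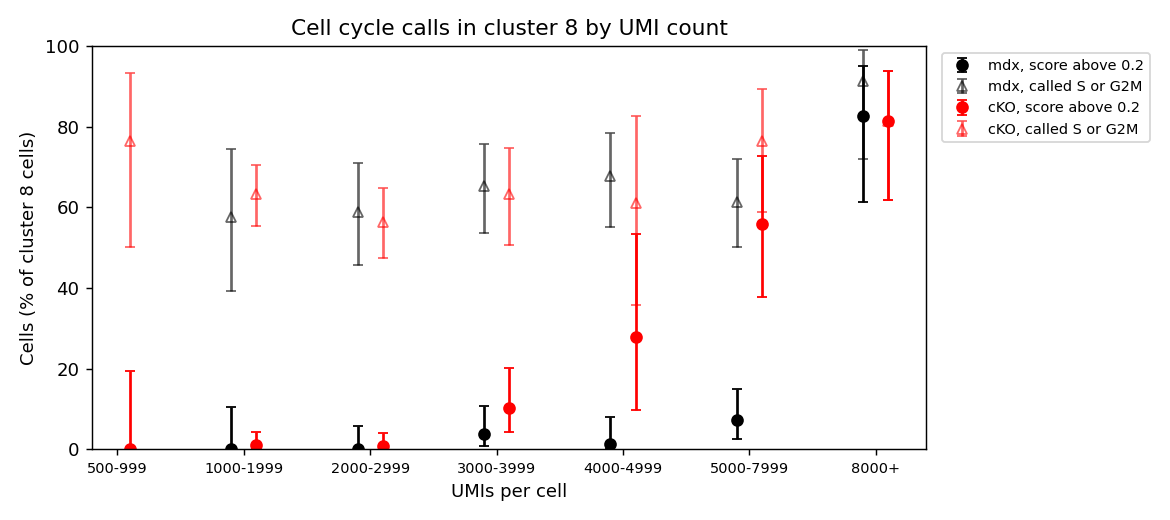
Percent of cluster 8 cells (y axis) above 0.2 on a cell cycle score (filled circles) and called S or G2M (open triangles) by UMIs per cell (x axis, bins) with mdx black, cKO red, exact 95% binomial intervals as bars, and bins of fewer than 10 cells left out. Cells above 0.2 stand at 7.23% in mdx and 55.9% in cKO from 5000 to 7999 UMIs and at 82.6% and 81.5% from 8000 UMIs, while the call of S or G2M is above 50% in every bin.

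Set beside the other lymphocytes, B cell cluster 15 also held many cells above 0.2, at a higher share than cluster 8. The share above 0.2 was 42.0% for mdx and 38.3% for cKO in cluster 15, against 8.26% and 12.04% in cluster 8, and 0.409% and 0.870% in B cell cluster 10. Matched for UMIs, cells above 0.2 made up 37.8% (26.8 to 49.9) and 43.2% (31.8 to 55.3) of cluster 15 in 74 pairs. These intervals overlapped and were wide, so they cannot tell whether a gap like that of cluster 8 was present there. The difference between the clusters was not tested. The cKO cell of a pair had more genes in 71.9% of the pairs of cluster 10, 77.0% of cluster 15 and 78.7% of neutrophil cluster 9, and in 53.7% of neutrophil cluster 7, so the higher number of genes at like UMIs was not particular to T cells. Neutrophils held far less mitochondrial RNA, at medians of 0.377% in mdx and 0.457% in cKO in cluster 7, while B cell cluster 10 lay above both T cell clusters at 5.75% and 5.77%.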

How the data were processed

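Muscles were digested with collagenase, freed of debris, red cells and dead cells, and loaded for 10x Genomics 3' libraries. Cell Ranger 7 and mm10 are named in the submitters' processing notes, and the authors normalized, integrated and clustered the cells in Seurat. The deposited UMI and gene counts are raw whole numbers per cell. The deposited mitochondrial fraction, between 0 and 0.1, was multiplied into percent here. Multiplied by the UMIs it gave whole UMIs (within 0.01) in all 17813 cells. The deposited cell cycle values are each a score, and how it was made is not described in the methods. The methods give limits of 200 and 1800 genes, but the deposited T cells exceed the upper one. Cells were assigned to genotypes by the library's name, taken as Cre-negative or Cre-positive, which its number of cells also matched.

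Cells of 2 groups were paired 1 to 1 when their UMIs differed by at most 5%, from the closest pair upward. Cells could not be thinned to 1 depth, since counts per gene were not used here. The pairing was tested on simulated data with known ratios. In the simulation the ratio of genes was the same at every depth, and no cycling cells were included. The simulation therefore does not cover a ratio that changes with depth, as was seen in the UMI bins. A first version walked both lists from the lowest UMIs upward. Its results on these data had been seen when it was replaced, because its simulated pairs differed in UMIs, and it is kept as an alternative. SciPy 1.17.1 gave the exact intervals, NumPy 2.4.6 and pandas 2.3.3 the medians and quartiles, and Matplotlib 3.10.9 the figures, under Python 3.11.15. The counting error of a difference or ratio of medians or ranges was taken from the width of the 95% binomial interval of each order statistic, combined over both groups, and covers the number of cells only. The precision follows from 351 to 965 T cells per cluster and library. Alternatives were unmatched cells, weighting over bins of 0.25 log2 UMIs holding at least 5 cells of each library, scaled UMIs, a limit of 1%, at least 500 genes or 1000 UMIs, dropping the 5% of cells highest in UMIs, the mean, and thresholds of 0.1 and 0.3, and, added later, leaving out cells above 0.2. The clusters, the threshold of 0.2 and the measures were chosen with earlier results of these data known. By rule no gene was given a value.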

Additional observations from a re-analysis of the deposited data

Results flagged for a closer look

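Some differences between the genotypes had opposite signs in the 2 T cell clusters, and for each of them the signs were alike in some other setting. For the mitochondrial share over all cells the median of cKO minus that of mdx was 0.248 percentage points in cluster 5 and -0.631 in cluster 8, both beyond counting error. In pairs matched for UMIs it was 0.233 and -0.157, both within counting error. The signs stayed opposite in pairs after scaling the cKO UMIs (0.179, within counting error, and -0.561, beyond it). They also did with pairs walked from the lowest UMIs upward (0.198 and -0.250). The signs were alike with cKO cells weighted over UMI bins (-0.0847 and -0.657) and in pairs without cells above 0.2 on a cell cycle score (0.234 and 0.329). The interquartile range of the share over all cells, as a ratio of cKO to mdx, was 1.15 in cluster 5 and 0.890 in cluster 8, and in the matched pairs it was 0.804 and 0.778, with all 4 within counting error. In the matched pairs the median G2M score of cKO minus that of mdx was -0.000626 in cluster 5 and 0.00838 in cluster 8, both within counting error, and it was 0.00189 and 0.00856 with pairs walked from the lowest UMIs upward. None of these differences between the clusters was tested, as each rests on 1 library per genotype.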

How the results depend on the processing

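Of 142 alternative values over 19 results, 125 stayed within the counting error of the value reported, 16 moved beyond it and 1 reversed. A value was counted as reversed only where the value reported was itself beyond counting error. Other changes of direction were counted as moved or as within the error. Among these were the ratio of genes in both clusters and the mitochondrial share of both clusters. The ratio of the cKO to the mdx percent of T cells in cluster 5 was 0.568 in pairs matched for UMIs. The ratio of UMIs in cluster 8 was 0.675 with the mean. Without matching, the ratio of genes was 0.748 in cluster 5 and 0.801 in cluster 8, the ratio of the spread of the mitochondrial share was 1.15 in cluster 5, the difference in that share was -0.631 percentage points in cluster 8, and that in cells above 0.2 was 3.78 percentage points in cluster 8. With cKO UMIs scaled to the mdx median, the ratio of genes was 0.739 and 0.797, the ratio of the spread was 1.13 in cluster 5, and the difference in cells above 0.2 reversed to -1.23 in cluster 8. With cKO cells weighted over UMI bins, the ratio of genes was 1.18 and 1.19, the difference in mitochondrial share was -0.657 in cluster 8, and that in cells above 0.2 was 3.997 in cluster 5 and 18.8 in cluster 8. The value of cluster 5 rests on few cells, as only 3 cKO cells there were above 0.2. The deepest of them held 3828 UMIs, and from 3000 to 3999 UMIs cluster 5 had 26 cKO cells against 408 mdx cells. With pairs walked from the lowest UMIs upward, the first pairing used, each value stayed within the counting error of the value reported, among them a ratio of genes of 1.03 and 1.05, a ratio of the spread of 1.00 in cluster 5, and a difference in cells above 0.2 of 11.3 in cluster 8, but the lower mitochondrial share of cluster 8 against cluster 5 in mdx, -0.423, was then -0.265 and no longer beyond its own counting error. Weighting also turned the difference in mitochondrial share of cluster 5 from 0.233 to -0.0847, both within counting error, and gave a difference in the G2M score of 0.0103 in cluster 5 and 0.0125 in cluster 8, beyond it. Without cells above 0.2, which was set after seeing the data, the difference in mitochondrial share was 0.329 in cluster 8. Scaling and weighting change which depths are compared, and the cause of the other moves was not tested. No paired analysis was possible because each genotype had 1 library, and no library could be left out.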
